A study of Mus musculus with 12 samples.

Results

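The comparison described here sets mouse skin of the genotype labelled Serpinb3a null against wild-type skin, both taken after a patch with an extract of the mould Aspergillus fumigatus. It uses 6 of the 12 libraries of the series, 3 per genotype, chosen by the genotype and treatment in their titles, and covers each of the 15341 genes tested. The wild-type animals were BALB/C, the strain field of the labels, and carried no other named allele or agent. Every back was shaved on day 0, a gauze patch holding 200 µg of extract (ASP in the labels) was taped on at day 1 and removed at day 4, and the skin beneath was collected on day 5. The 6 remaining libraries, 3 per genotype, carry the mark SAL, which the labels do not expand. They set the same genotype difference beside the one under ASP, and also entered the fit behind its standard errors and p-values.

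The second genotype has 3 descriptions in the labels. Titles give a knockout of SCCA2, the genotype field gives a Serpinb3a transgene, and the design text gives a Serpinb3a null. They do not say which part of the gene was changed, so counts over the whole gene cannot check the genotype. The animals are therefore called labelled-null, and every direction below is drawn by that label. Whether each library of a group came from its own animal is not stated. The p-values thus reflect variation among these samples, which may be technical.

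Serpinb3a belongs to the clade B serpins, protease inhibitors that mostly stay inside the cell. Human SERPINB3 and SERPINB4, first described as squamous cell carcinoma antigens, block cysteine and serine proteases and are abundant in the epidermis of atopic dermatitis and psoriasis. Mouse skin holds several close Serpinb3 paralogs in 1 cluster on chromosome 1. Moulds such as Aspergillus fumigatus release proteases and are a common source of allergens, and skin meets them with a barrier of keratins, cornified proteins and lipids backed by resident mast cells, macrophages, dendritic cells and lymphocytes.

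Total counts were 9559632, 8390211 and 9030721 for wild-type ASP replicates 1, 2 and 3, and 10456277, 11268730 and 8115038 for the labelled-null ones. The wild-type group was the more uneven of the pair. A library's rank correlation with the others of its own group (Spearman, across genes, averaged) was 0.902, 0.879 and 0.877 for wild type and 0.946, 0.956 and 0.948 for labelled-null. Wild-type replicate 3 stood at least 3 times above each other ASP library in 203 genes of at least 10 CPM (counts scaled to library size), and wild-type replicate 2 did so in 65. The remaining 4 libraries did so in 1 to 11 genes. Many of the values below depend on replicate 3 or 2, and values without it are given beside those that moved most.

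**Figure D1:**
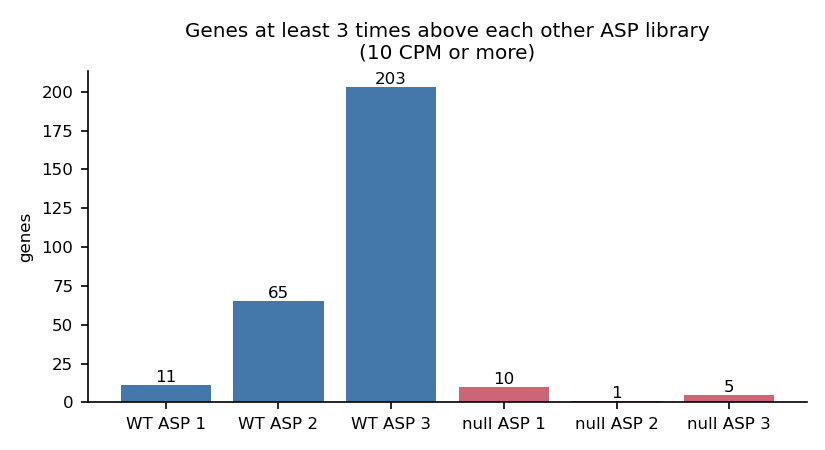
Number of genes (vertical axis) whose level in a library was at least 3 times that in each of the other 5 ASP libraries, at 10 CPM or more, for the 3 wild-type (WT) and 3 labelled-null ASP libraries. Wild-type replicate 3 held 203 such genes and wild-type replicate 2 held 65, against 1 to 11 in the rest.

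The Serpinb3 genes themselves come first. All levels below are CPM scaled by the trimmed mean of M-values (TMM), and fold changes are log2 values of labelled-null minus wild type with their standard errors. Serpinb3a lies on chromosome 1 from 107045587 to 107052303 (GRCm38). It stood at 0.699, 1.40 and 0.264 in wild-type skin and at 2.31, 1.74 and 1.98 in labelled-null skin, which rests on 2 to 24 counts a library. Every labelled-null library was above every wild-type library, so the labelled-null group was not the lower one, with a fold change of 1.31 ± 0.63 under ASP and 3.66 under SAL. Serpinb3d showed the same order, with 0.175, 0.0934 and 0.264 against 2.12, 0.834 and 0.550, a fold change of 2.68 ± 0.91. The other paralogs leaned the other way. Serpinb3b, with the most counts of the paralogs, stood at 16.7, 22.2 and 5.81 in wild type and at 8.08, 7.05 and 8.14 in labelled-null skin, so the groups overlapped through wild-type replicate 3 (fold change -0.95 ± 0.48). Without wild-type replicate 2 the fold changes of Serpinb3a and Serpinb3b were 1.98 and -0.55. Serpinb3c gave -1.04 ± 0.69 and its groups did not overlap. None of the 4 passed the test (edgeR quasi-likelihood, Benjamini-Hochberg adjusted p = 0.999 for each). Between 12.2% and 15% of their 50-base transcript stretches are shared with another gene, most often Gm8080 for Serpinb3a and Serpinb3d. Reads could therefore have been split between the paralogs and such genes.

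Across all genes, no gene passed the test at an adjusted p under 0.05 (0 of 15341, 0%), with 0.999 as the lowest value reached. Before adjustment, edgeR gave a p under 0.05 to 139 genes higher (0.906%) and 332 lower (2.16%) in labelled-null skin, fewer than the 767 that a level of 0.05 gives with no difference at all. The groups did not overlap in 637 genes in the higher direction (4.15%) and in 532 in the lower (3.47%). The median fold change over all genes was -0.04, and 46.6% of genes were above 0. The spread behind these counts was wide, with a biological coefficient of variation of 0.427 over the 12 libraries. DESeq2 on the same genes called 5 (0.0327% of 15286), and limma-voom with library weights called 0, with 153 higher and 229 lower at an unadjusted p under 0.05. The genes DESeq2 called were Serpinb11 and Cyp2g1, higher, and Gpnmb, Acsf3 and Gm15093, lower. The last was named only after its values were seen, since it had 0, 40 and 12 counts in wild type and 0 in each labelled-null library, and 100% of its transcript stretches occur in other genes.

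Gpnmb and Serpinb11 led the lower and the higher side. Their promoters, from 250 bases before to 50 after the annotated start, are shown because these were the genes with the smallest p in each direction. The sequences are RefSeq's on GRCm38.p6, plus strand, at chr6:49036268-49036567 for Gpnmb and chr1:107362064-107362363 for Serpinb11. Capitals mark matches to TGANTCA, where N is any base. This is a loose form of TGACTCA, a site for AP-1, the Fos and Jun dimer.
Gpnmb: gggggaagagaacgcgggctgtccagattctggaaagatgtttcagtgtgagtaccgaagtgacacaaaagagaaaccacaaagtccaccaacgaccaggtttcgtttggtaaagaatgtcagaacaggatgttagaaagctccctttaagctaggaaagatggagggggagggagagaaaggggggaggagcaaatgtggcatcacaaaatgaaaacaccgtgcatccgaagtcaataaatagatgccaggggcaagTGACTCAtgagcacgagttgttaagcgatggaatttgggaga
Serpinb11: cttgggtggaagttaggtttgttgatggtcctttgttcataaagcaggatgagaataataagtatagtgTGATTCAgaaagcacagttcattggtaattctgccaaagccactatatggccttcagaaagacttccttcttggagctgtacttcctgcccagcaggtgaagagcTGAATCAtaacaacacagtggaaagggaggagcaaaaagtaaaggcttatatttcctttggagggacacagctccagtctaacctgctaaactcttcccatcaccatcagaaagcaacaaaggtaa
Gpnmb held 1 match, starting 8 bases after the gene start, and Serpinb11 held 2, starting 181 and 76 bases before it. The match in Gpnmb reads TGACTCA, whereas those in Serpinb11 read TGATTCA and TGAATCA and differ from that site at the centre. Both strands were searched, and 7.81% of the 32851 promoters in the table hold at least 1 such match. TATAAA and CACGTG, the TATA box and the palindromic E-box, were searched too and had no match in these windows, against 13.6% and 7.15% of promoters. A match describes letters only.

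Gpnmb, a transmembrane glycoprotein of macrophages, melanocytes and osteoclasts, lies on chromosome 6 from 49036518 to 49058182. Wild-type ASP skin gave 85.4, 35.0 and 40.9 and labelled-null ASP skin 13, 13.3 and 11.3. The lowest wild-type library was well above the highest labelled-null one. The group means were 53.8 ± 27.6 and 12.6 ± 1.07 (SD, n = 3 each), and the fold change was -2.10 ± 0.43, or 4.28 times higher in wild type. Its adjusted p was 0.999 with edgeR and 0.0114 with DESeq2. Under SAL the same gene gave 22.1, 44.3 and 24.1 in wild type and 10.1, 23.0 and 10.4 in labelled-null skin, a fold change of -1.05 with overlapping groups. Macrophage genes were divided in direction. Of 33 tested, Gpnmb among them, 20 were above 0, with a median of 0.16. Over the other settings and left-out libraries this median ran from -0.11 to 0.24. Of 14 core macrophage genes 10 were above 0, and of 7 monocyte genes 3. C1qb, a chain of complement C1q, gave 0.53 ± 0.30, F13a1 gave 0.50 ± 0.30 and Lyve1 gave 0.64 ± 0.44, whereas Aif1, a calcium-binding protein of macrophages, gave -1.49 ± 1.07, all short of the test. Aif1 was named after its values were seen, and its value was not followed over the other settings. Of 8 melanocyte genes 3 were above 0 (median -0.21), and their summed level was 58.0 to 89.6 in wild-type and 56.5 to 79.3 in labelled-null libraries. The part of melanocytes in the Gpnmb difference was not tested.

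Serpinb11, a clade B serpin that lies 317 kb beyond the start of Serpinb3a (chromosome 1, 107362314 to 107380475), was the opposite case. Wild type gave 2.71, 1.31 and 0.528 and labelled-null skin 8.56, 9.32 and 10.7 under ASP. The labelled-null libraries sat close together and far above wild type, with a fold change of 2.61 ± 0.58 (6.12 times). The SAL libraries, other samples in the same fit, repeated the order. They gave 0.634, 1.13 and 0.380 against 10.1, 5.14 and 9.30, a fold change of 3.52. Adjusted p under ASP was 0.999 with edgeR and 0.0177 with DESeq2. No 50-base stretch of Serpinb11 is shared with another gene.

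The genes around the cluster were uneven in this respect. Serpinb12 and Serpinb13, epidermal serpins on the other side of Serpinb3a, had fold changes of 1.78 ± 0.70 and 3.27 ± 1.40 under ASP but -0.43 and -1.55 under SAL. Serpinb12 stood at 2.97, 1.31 and 2.38 against 4.90, 13 and 4.95, with no overlap, while Serpinb13 rested on few counts and overlapped. Serpinb5, or maspin, a serpin of basal keratinocytes and the most highly counted neighbour, stood at 231.7, 245.7 and 222.9 in wild type and at 302.5, 295.9 and 407 in labelled-null skin (0.52 ± 0.32, no overlap). Of 15 other clade B serpins tested, which include these 4, 8 were above 0, with a median of 0.11. None passed the test with edgeR.

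**Figure D2:**
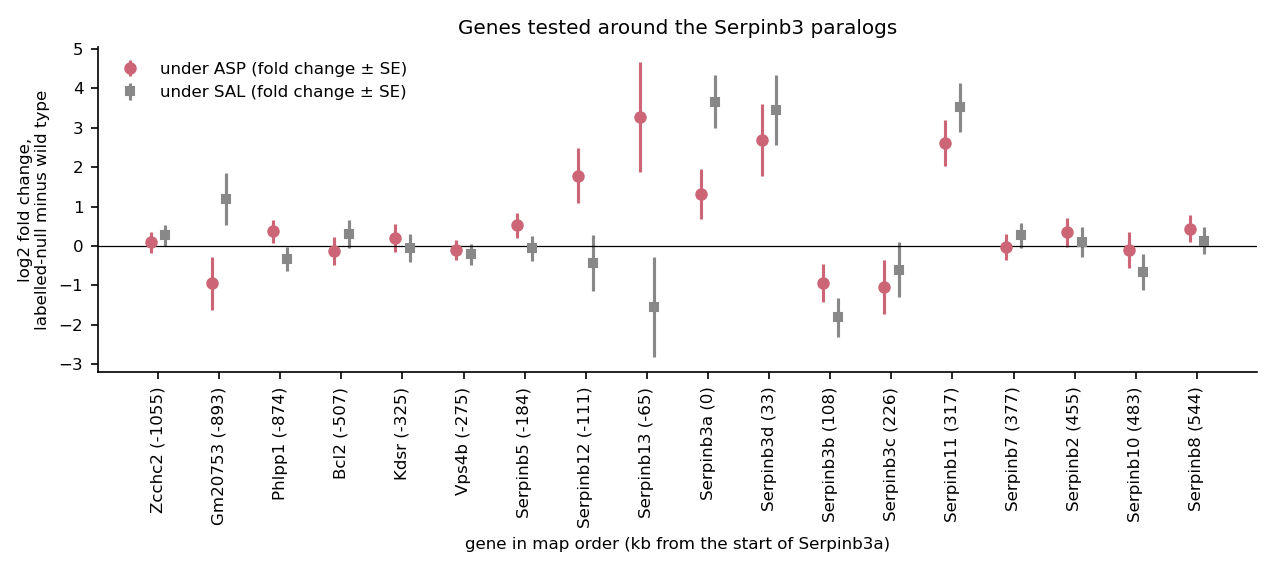
Log2 fold change (vertical axis, labelled-null minus wild type, points with standard error) of tested genes in map order around Serpinb3a, with the distance in kb from its start, under ASP (circles) and under SAL (squares). Serpinb3a, Serpinb3d and Serpinb11 were above 0 and Serpinb3b and Serpinb3c below 0 under both treatments, whereas Serpinb12 and Serpinb13 were above 0 under ASP only; none passed the test with edgeR under ASP.

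Cyp2g1 and Ces4a, enzymes of small-molecule metabolism, were also among the 12 genes with the smallest p in the higher direction. Cyp2g1, a cytochrome P450 best known from olfactory mucosa, gave 8.21, 0.560 and 8.45 in wild type and 76.0, 27.2 and 19.8 in labelled-null skin. The groups did not overlap, and labelled-null replicate 1 was the highest by far, so the fold change of 2.84 ± 0.69 came with a wide spread. Under SAL the gene again showed no overlap, with 8.70, 4.63 and 5.32 against 32.8, 74.5 and 51.8 (fold change 3.09). Ces4a, a carboxylesterase, gave 12.1, 9.71 and 9.64 against 39.8, 55.2 and 17.8, a fold change of 1.84 ± 0.41. All labelled-null libraries were above wild type under ASP, whereas under SAL the groups overlapped (0.74). Aldh1a3, which makes retinoic acid from retinal, leaned the other way at -2.74 ± 0.70, with 4.02, 8.49 and 40.1 in wild type against 2.40, 2.12 and 3.30, and stood at -1.26 without wild-type replicate 3. Of 38 detoxification genes tested, which include these, 20 were above 0, and the median of 0.02 was 0.33 without wild-type replicate 2.

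Of the 12 genes with the smallest p in the higher direction, each had every labelled-null library above every wild-type library, where 4.15% of all genes did. A choice by p in the same libraries favours this order. Spon1, a secreted matrix protein, gave 16.9, 14.4 and 11 against 31.7, 43.2 and 21.7 (1.19 ± 0.33), and the SAL libraries did not overlap either (0.93). Lcn2, which binds bacterial siderophores and is made by stressed epithelium and neutrophils, gave 1.14, 0.654 and 0 against 1.92, 11.5 and 5.17 (3.28 ± 0.92). These are low levels, with 0 to 13 counts in wild type. Pla1a, a phospholipase specific for phosphatidylserine, gave 0.699, 1.21 and 0.264 against 5.96, 5.00 and 4.07 (2.74 ± 0.78). Snap91, a clathrin assembly protein, was very even in the labelled-null libraries at 8.36, 8.34 and 8.36, against 3.14, 3.36 and 2.51 (1.47 ± 0.49). Ddx21, a nucleolar RNA helicase, had a fold change of 0.97 ± 0.33 under ASP and -0.06 under SAL. The rest were Rassf10, Aadacl3, Kctd15 and Ccn1, at 1.51 to 2.02. For Kctd15 the SAL value had the opposite sign (-0.76).

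**Figure D3:**
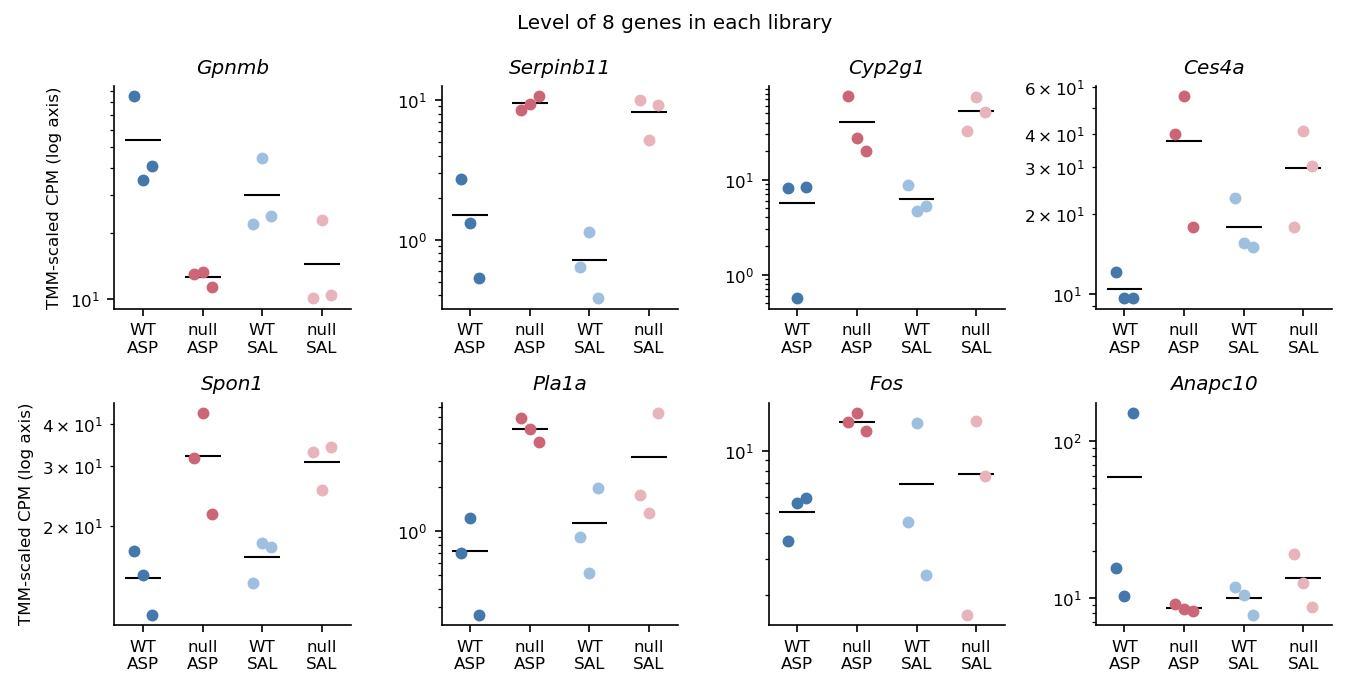
Level of 8 genes (vertical axes, TMM-scaled CPM, logarithmic) in each of the 12 libraries (points, replicates 1 to 3 from left to right), with the group mean as a line. Gpnmb was lower and Serpinb11, Cyp2g1, Ces4a, Spon1, Pla1a and Fos higher in all labelled-null ASP libraries than in wild type, while the wild-type mean of Anapc10 was carried by replicate 3.

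Of the 12 genes with the smallest p in the lower direction, 10 were highest by at least a factor of 2 in wild-type replicate 3. Anapc10, a subunit of the anaphase-promoting complex, gave 15.5, 10.4 and 151.5 in wild type and 9.13, 8.49 and 8.25 in labelled-null skin. Abcb1a, the efflux pump P-glycoprotein, gave 3.49, 7.38 and 161.1 against 6.15, 4.24 and 5.06. Both show 1 high library and otherwise similar levels. Leaving out that replicate moved Abcb1a from -3.47 to -0.07, Kcna6, a potassium channel, from -4.62 to -0.82, Anapc10 from -2.77 to -0.58, Acsf3, a mitochondrial acyl-CoA synthetase, from -3.42 to -1.01, and Zfp30, a zinc finger protein, from -3.68 to -1.12. Icos, a costimulator of activated T cells, gave 5.94, 1.68 and 28.0 against 0.192, 0.227 and 2.20 (-3.79 ± 1.01), and the groups overlapped. Without replicate 3 its value was -2.15. Zfp119b, Ppp1r1a and BC024978 had the same high replicate, and without it stood at -1.03, -1.28 and -0.66. Gpnmb did not: without replicate 3 its fold change was -2.26. Vmn2r46, annotated as a vomeronasal receptor, gave 5.07, 6.82 and 2.64 against 0.192, 1.06 and 0.550, but 97.8% of its transcript stretches occur in other genes.

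Without wild-type replicate 3, DESeq2 called 3 genes lower (0.0196%) and 0 higher, and only Gpnmb of the original 5 was among them, at an adjusted p of 0.0193. The others were Snrpd2 and Zfp235, named for this count alone, and Zfp235 had a value above 0 (0.31) with edgeR when wild-type replicate 1 was left out. Serpinb11 then had an adjusted p of 0.135. Without each of the other ASP libraries in turn, the adjusted p of Gpnmb ran from 0.000915 to 0.172, and without either labelled-null replicate 1 or 2 DESeq2 called 0 genes. Xist, the RNA that silences the X chromosome, was highest in the same library. It stood at 3843, 3221 and 11150 in wild type and at 3461, 2428 and 3511 in labelled-null skin. The part of that replicate's other differences in these values was not tested.

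Genes for the lipids of the epidermal barrier were mostly above 0 in labelled-null skin, though none passed the test with edgeR. These enzymes make the ceramides, cholesterol and very long fatty acids that fill the space between corneocytes. Of 46 tested, 37 were above 0, with a median of 0.33 against -0.04 for all genes, and 0.34 without wild-type replicate 3. In 9 the labelled-null libraries were all above wild type, and in 1 all below, where 4.15% and 3.47% of all genes were so. Genes listed for cholesterol supply and sulphation were above 0 in 10 of 10, with a median of 0.64, or 0.47 without wild-type replicate 3, and in 7 of 10 under SAL. Of 7 genes for elongation and activation of fatty acids 6 were above 0. Elovl4, which makes the ultra-long chains of acylceramides, gave 482.3, 361.5 and 284.7 against 539.2, 902.7 and 533.4 (0.81 ± 0.38). Elovl1 gave 73.9, 55.1 and 38.6 against 89.9, 89.9 and 86.8 (0.67 ± 0.32). For ceramides, Smpd1, the acid sphingomyelinase, gave 0.73 ± 0.29 with no overlap, and Cers4, a ceramide synthase, gave 0.80 ± 0.32 with overlap. Sebaceous lipid genes leaned less, with 22 of 30 above 0 and a median of 0.11, or 0.22 without wild-type replicate 3 and 0.45 without replicate 2. The summed level of the barrier lipid list was 3864, 2950 and 4209 in wild-type and 4819, 4745 and 4205 in labelled-null ASP libraries. The groups overlapped there through wild-type replicate 3. Under SAL the barrier lipid median was 0.26, with 34 of 46 above 0.

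Structural genes of the epidermis were mixed. Of 9 epidermal keratins tested 8 were above 0, with a median of 0.38 that was 0.14 without wild-type replicate 3. Krt1, a keratin of the suprabasal layers, was lowest in wild-type replicate 2 and had a fold change of 1.07 ± 0.50 with no overlap. Krt10, its partner, gave 0.74 ± 0.54 with overlap. Of 45 cornification genes 27 were above 0 (median 0.06). Hrnr, or hornerin, a filaggrin-type protein, gave 1.16 ± 0.45 and Blmh, which degrades filaggrin, 0.70 ± 0.31, each without overlap. Of 21 epidermal stress genes 13 were above 0, with a median of 0.345, or -0.02 without wild-type replicate 3. Stress keratins were above 0 in 4 of 4, calprotectin and others in 6 of 8, and stefins in 3 of 4. Small proline-rich genes of the Sprr2 family, from the same list, ran the other way, with 0 of 5 tested above 0 and a median of -1.83. Sprr2a1 stood at 10.7, 48.0 and 10.04 against 8.65, 4.09 and 6.60, with wild-type replicate 2 highest. Its fold change, which is also the median of the group, was -0.68 without that replicate. Sprr2a2 holds the same counts in every library, and 96.3% of the stretches of Sprr2a1 are shared, so these genes are not independent measurements. Of 24 protease genes 16 were above 0 (median 0.27, or 0.03 without replicate 3). Prss8, a channel-activating protease, and Klk5, a kallikrein of desquamation, gave 0.91 ± 0.48 and 0.63 ± 0.37 with no overlap, and 0.52 and 0.41 without replicate 3.

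Immediate early genes, which are transcribed within minutes of a stimulus, were above 0 in 27 of 35, with a median of 0.32. In 7 of them the labelled-null libraries were all higher, and in 0 all lower, against 4.15% and 3.47% of all genes. Fos, an AP-1 subunit, gave 3.67, 5.60 and 5.94 against 13.8, 15.4 and 12.6 (1.46 ± 0.65). Jun, its partner in the dimer, leaned the other way at -0.41 ± 0.34 with overlap, and was named after its values were seen. Ccn1, a matricellular protein, gave 3.93, 2.43 and 2.25 against 5.38, 12.5 and 6.71 (1.51 ± 0.49). Btg2, an antiproliferative regulator, gave 6.03, 7.28 and 3.70 against 10.8, 13.3 and 13.8 (1.15 ± 0.42). Dusp6, a phosphatase that switches off ERK, gave 8.91, 10.6 and 4.62 against 16.3, 15.1 and 20.4 (1.09 ± 0.41). Fos, Ccn1, Btg2 and Dusp6 had the smallest p of the list, so their separation at low levels follows in part from how they were picked. Under SAL they overlapped, with fold changes between -0.17 and 0.58, and the list median was 0.09. Dusp1, first among the feedback regulators listed, stood at 101.2, 52.7 and 530.2 against 184.6, 89.1 and 132.7, again with wild-type replicate 3 on top, and its fold change of -0.75 was 0.82 without it. The summed level of the list was 684 to 1412 in wild-type and 904.9 to 1413 in labelled-null libraries, so the list as a whole did not separate them.

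Cell cycle genes were above 0 in 51 of 76, with a median of 0.18. Of 33 mitosis genes 23 were above 0, and 8 had all labelled-null libraries higher, against 4.15% of all genes. Of 26 DNA replication genes 1 had this order, and of 17 G1 control genes 0. Under SAL the median of the whole list was 0.09, with 42 of 76 above 0. Anln, a scaffold of the cleavage furrow, gave 48.7, 30.1 and 34.6 against 62.1, 68.7 and 58.5 (0.74 ± 0.33). Mcm3, a subunit of the replicative helicase, gave 1.29 ± 0.56 and E2f2, a transcription factor of S phase, 1.19 ± 0.54, both with overlap, and E2f2 gave 0.74 without wild-type replicate 3. The summed level of the list overlapped between groups, at 1333 to 1939 in wild-type and 1658 to 1852 in labelled-null libraries.

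**Figure D4:**
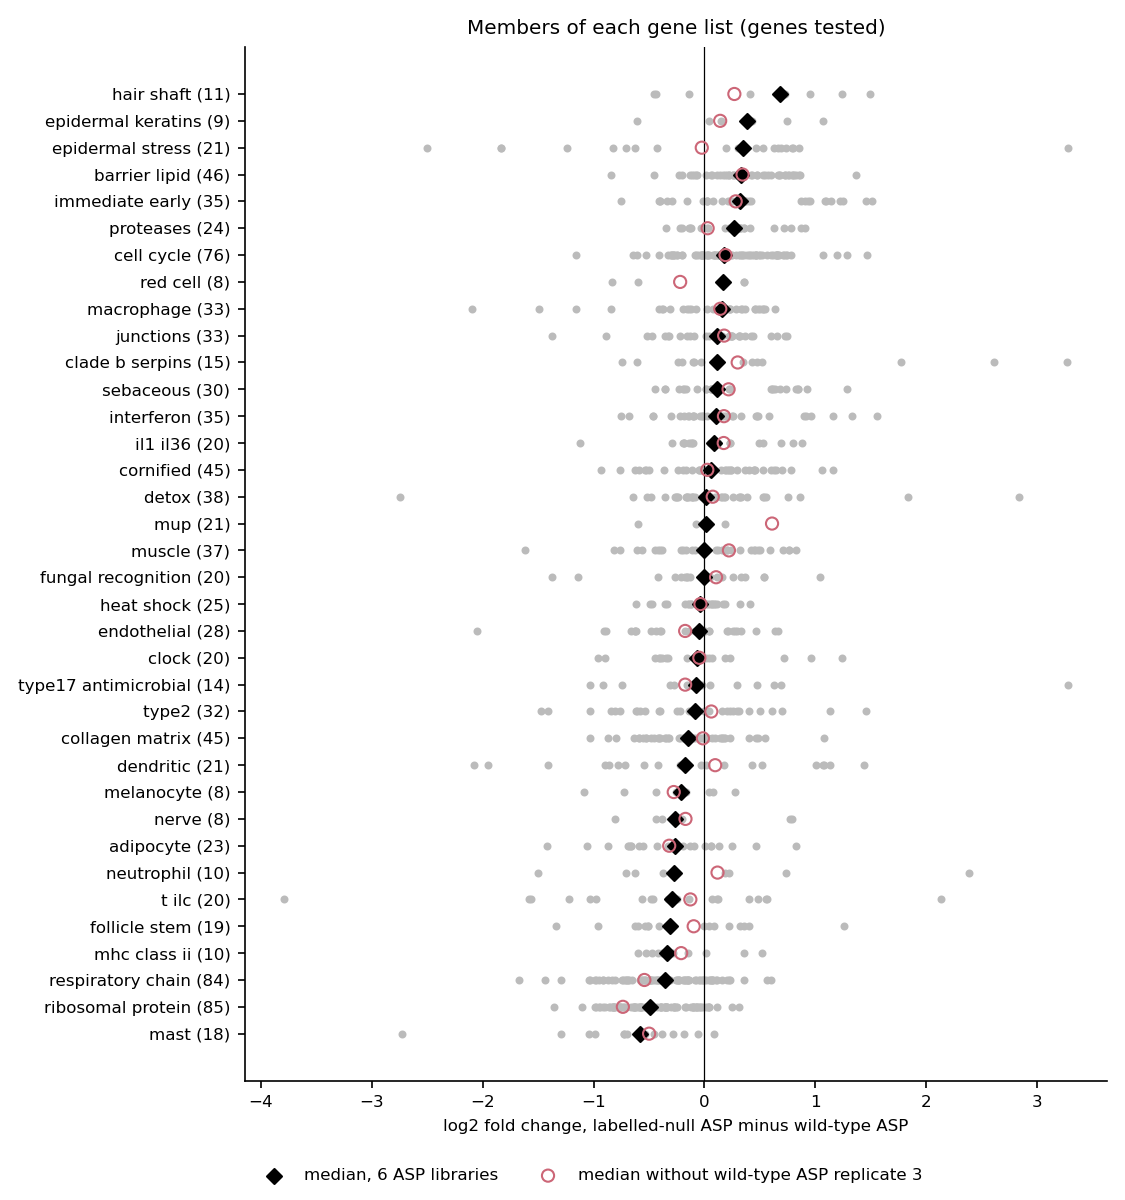
Log2 fold change under ASP (horizontal axis, labelled-null minus wild type) of each tested member (grey points) of gene lists with at least 8 tested genes, the number in brackets, with the list median from the 6 ASP libraries (diamond) and without wild-type replicate 3 (open circle). Barrier lipid, immediate early and cell cycle medians lay above 0 and the mast cell median below 0 in both, and no member passed the test with edgeR.

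Mast cell genes had the lowest median of the lists with 8 or more tested members. Mast cells sit in the dermis and release proteases and amines when IgE on their surface is crosslinked. Of 24 genes listed 18 were tested, 17 of these were below 0, and the median was -0.58 (-0.50 without wild-type replicate 3). Ms4a2, the beta chain of the IgE receptor, gave 2.79, 2.99 and 18.4 against 1.83, 0.379 and 1.43 (-2.73 ± 0.90). Without wild-type replicate 3 its value was -1.26. Cpa3, the mast cell carboxypeptidase, gave 47.5, 103.5 and 140.4 against 44.0, 42.9 and 60.3 (-0.98 ± 0.38). Wild-type replicate 1 lay within the labelled-null range there, and without replicate 3 the value was -0.62. Tpsab1, a tryptase, gave 2.97, 4.39 and 5.02 against 1.25, 2.20 and 1.54 (-1.29 ± 0.70), with no overlap. The chymases Cma1 and Mcpt4, typical of connective tissue mast cells, gave -0.46 ± 0.42 and -0.18 ± 0.38, and Kit, the growth factor receptor, -0.73 ± 0.56, each with overlap. Both chymases turned positive without wild-type replicate 2 (0.26 and 0.49), and Kit did so without replicate 3 (0.25). Fcer1a, the alpha chain of the IgE receptor and a defining marker, had 0, 12 and 0 counts in wild type and 0, 0 and 2 in labelled-null skin. The summed level of the list was 292.6, 442.7 and 548.9 in wild-type and 304.8, 233.2 and 342.0 in labelled-null libraries, so wild-type replicate 1 fell among the labelled-null values. No member of the list passed the test with edgeR. In whole skin, any difference in mast cell number and any in RNA per mast cell cannot be told apart. Under SAL the median was 0.02 and 10 of 18 were above 0.

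Among the other immune lists, T cell and innate lymphoid genes had a median of -0.29, or -0.13 without wild-type replicate 3, with 8 of 20 above 0. Neutrophil chemokines had a median of -0.60 over 4 tested genes, and 1.95 without wild-type replicate 2. Genes of MHC class II presentation had a median of -0.33, or -0.21 without replicate 3, with 3 of 10 above 0 under ASP and 10 of 10 under SAL. H2-Ab1, a class II beta chain, gave 94.7, 77.6 and 93.6 against 96.8, 54.3 and 47.9 (-0.42 ± 0.31), with 1 labelled-null library at the wild-type level. Of 32 type 2 genes tested 15 were above 0 (median -0.08, or 0.06 without replicate 3). Ccl11, or eotaxin, stood at 46.3, 44.3 and 297.3 against 69.0, 15.8 and 54.4, and its fold change of -1.48 ± 0.62 was 0.04 without wild-type replicate 3. Ccl22, a chemokine for CCR4-bearing lymphocytes, was higher in each labelled-null library (1.14 ± 0.62, or 0.63 without wild-type replicate 3), also under SAL (1.64). The cytokine genes Il4, Il5 and Il13 had 0 to 11 counts in each ASP library and were not tested, and Il17f and Il22 had 0 in all 6. Il18r1, a chain of the IL-18 receptor, gave 14.8, 20.6 and 30.8 against 10.8, 10.2 and 9.35 (-1.13 ± 0.47), with no overlap. Interferon response genes had a median of 0.11, and of 20 fungal recognition genes 10 were above 0.

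Ribosomal protein and respiratory chain genes turned on wild-type replicate 2. Of 85 ribosomal protein genes 7 were above 0, with a median of -0.49, and of 84 respiratory chain genes 16, with a median of -0.35. The summed ribosomal protein level was 9574, 26733 and 11074 in wild-type and 10251, 11970 and 13174 in labelled-null libraries. In this sum wild-type replicate 2 was more than 2 times each of the other 5 ASP libraries, and without it both medians turned, to 0.46 and 0.45. Fibrillar collagens, the main fibres of the dermis, rested on replicate 3 instead. Of 7 tested 0 were above 0, with a median of -0.53, and without replicate 3 the median was -0.06 with 3 of 7 above 0. Col1a1 gave 460.9, 169.7 and 906.5 against 550.5, 336.2 and 101.7, or -0.64 ± 0.57, and 0.07 without replicate 3. Col5a3, a minor fibrillar chain, was lower in each labelled-null library (-0.87 ± 0.39), and its value was -0.50 without replicate 3.

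**Figure D5:**
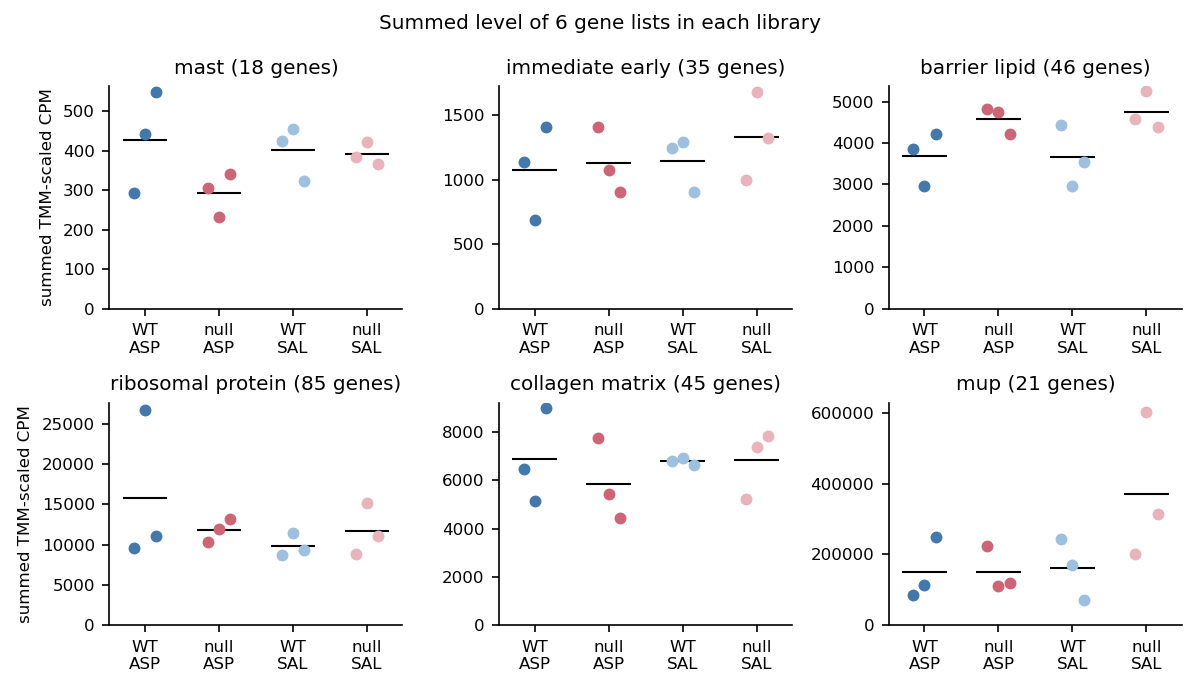
Summed TMM-scaled CPM (vertical axes) of the tested members of 6 gene lists in each of the 12 libraries (points), with the group mean as a line. Wild-type ASP replicate 2 held 26733 for ribosomal proteins against at most 13174 in the other ASP libraries, and mast cell sums of the ASP groups overlapped through wild-type replicate 1.

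The SAL libraries allow the same genotype difference to be read in other samples. These shared the gene filter, scaling and estimate of the spread with the ASP comparison. Of the 139 genes higher at an unadjusted p under 0.05 under ASP, 87 had the same sign under SAL and 52 the opposite, and 10 and 4 of them also had such a p there. Of the 332 lower genes, 155 had the same sign and 177 the opposite, with 10 and 10. Over all 15341 genes, 7852 were above 0 under SAL, and 339 higher and 331 lower genes had such a p there. No gene passed under SAL (edgeR, smallest adjusted p 0.354). Among genes whose ASP groups did not overlap, 38 of the 637 higher ones were again without overlap in the same direction and 32 in the opposite one, and among the 532 lower ones 22 and 17. Of all genes tested, 3.62% were higher and 4.44% lower without overlap under SAL. Serpinb11, Cyp2g1, Spon1 and Serpinb3d are among the higher genes without overlap in the same direction under both treatments. Whether the higher and the lower side differ in this was not tested.

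Whether the genotype difference itself changed with the treatment was tested with the interaction term, the ASP difference minus the SAL difference. No gene passed (0 of 15341 with edgeR, smallest adjusted p 0.998), and at an unadjusted p under 0.05 there were 227 with a higher and 358 with a lower value under ASP. DESeq2 called 1, Gm15093, described above. Leaving aside genes whose mean log2 CPM was under 1, the smallest interaction p belonged to Nlrc4, Vmn2r46, Ms4a6b, Plek and Asb7. Nlrc4, an inflammasome sensor, gave 1.40, 1.49 and 14.9 against 0.481, 0.834 and 0.330 under ASP, and 25.4 in a single labelled-null library under SAL, where the wild-type libraries were at 0.272 to 0.308. Plek, the protein kinase C substrate pleckstrin of blood cells, gave 14.5, 17.5 and 23.9 against 10.1, 9.02 and 14.4 under ASP and 9.61, 10.2 and 10.6 against 15.7, 26.9 and 19.4 under SAL. Every labelled-null library was below wild type in the first case and above it in the second, with an interaction of -1.76. Ms4a6b, a membrane protein of myeloid and T cells, and Asb7, a substrate adaptor of a ubiquitin ligase, had fold changes of -0.94 and -1.45 under ASP and 2.35 and 0.83 under SAL. The SAL groups of Ms4a6b overlapped, with 44.9 in labelled-null replicate 1 against 6.46 and 11.96 in replicates 2 and 3. Without wild-type ASP replicate 3 the ASP values of Nlrc4, Plek, Ms4a6b and Asb7 were -1.35, -0.51, -0.45 and -0.64.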

How the data were processed

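RNA of whole mouse skin was sequenced in 12 libraries, of which the 6 ASP libraries are compared here. In the deposited table each value is a raw count for an Entrez gene ID, not normalized by the authors. Per the submitters' processing notes the tools were bcl2fastq, CASAVA 1.8, TopHat and DESeq, with the build mm10. How reads were assigned to genes, and whether strand was used, is not given in the sources at hand. Reads of overlapping or antisense genes may therefore be mixed. Of 18 columns, 12 match a library by its label, and 6 match none and were not used. Of 23469 IDs, 23372 matched a symbol in RefSeq's GRCm38.p6 gene table, which also gave coordinates. The 97 others held 8.76% to 15.8% of counts in the ASP libraries, and Mup transcripts held 10.3% to 22.4%.

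After filterByExpr and TMM scaling, all 12 libraries entered a quasi-likelihood fit in edgeR 4.0.16 (robust, R 4.3.3) with a coefficient for each of 4 groups. A call needed an adjusted p (Benjamini-Hochberg, 15341 genes) under 0.05. An exact permutation test of 3 against 3 libraries cannot go below 0.1, so none was run. Alternatives used DESeq2 1.42.0, limma 3.58.1 (voom), other scalings and filters, a replicate block and leaving out libraries. The script was tested on simulated data.

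The comparison and its 41 gene lists were chosen with earlier results of these data known. No test was run on a list. Named were the Serpinb3 paralogs, the 12 genes per direction with the smallest p at a mean log2 CPM of at least 1, from each list used up to 4 tested members by p and the first 3 of each role, and, at the same minimum level, the 5 smallest interaction p. Some are left out, and others are said to be chosen after their values were seen.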

Additional observations from a re-analysis of the deposited data

Results flagged for a closer look

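Plek and Vmn2r46 had labelled-null libraries all below wild type under ASP and all above it under SAL. Their interaction values were -1.76 and -4.76 on the log2 scale. The interaction was tested with edgeR for both and neither passed, with an adjusted p of 0.998. Reads of Vmn2r46 are largely shared with other genes. Of the 532 genes lower without overlap under ASP, 17 were higher without overlap under SAL, where 3.62% of all genes were.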

How the results depend on the processing

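With edgeR, 0 genes were called in either direction under each planned scaling, filter, fit and left-out library. DESeq2 gave 2 higher and 3 lower, and 1 lower for the interaction. Leaving out each ASP library in turn moved the edgeR counts at an unadjusted p under 0.05 to 90 to 478 higher and 159 to 781 lower. Both counts were largest without wild-type replicate 2. The replicate block gave 135 higher and 220 lower. Same-numbered ASP libraries deviated together with correlations of 0.157, 0.146 and -0.015. These values cannot decide whether the replicate numbers pair the samples. The block cannot either, since no gene was called with or without it.

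DESeq2 without single libraries was added after seeing the data. Its calls, higher and lower, were 7 and 43 without wild-type replicate 1, 6 and 55 without replicate 2, 0 and 3 without replicate 3, 0 and 0 without labelled-null replicate 1 or 2, and 2 and 2 without labelled-null replicate 3. At an unadjusted p under 0.05 it gave 472 higher and 785 lower, 581 and 886, and 219 lower for the 3 wild-type omissions in that order. Its interaction gave 1 or 2 lower in 5 of these fits.

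Of 1694 values of named genes, which do not include Aif1, 1674 kept their direction and 20 reversed, in 7 genes. Log2 values over left-out libraries ran from -1.92 to 0.0366 for Ccl11, -1.26 to 0.0658 for Col1a1, -1.22 to 0.817 for Dusp1, -1.05 to 0.253 for Kit, -0.785 to 0.26 for Cma1, -0.462 to 0.487 for Mcpt4 and -3.51 to 0.308 for Zfp235. Without both libraries farthest from the rest (wild-type ASP replicate 3 and labelled-null SAL replicate 1) Ccl11, Col1a1, Dusp1 and Kit stood at 0.0341, 0.0644, 0.815 and 0.25, and with DESeq2 without wild-type replicate 3 at 0.0293, 0.0563, 0.808 and 0.243. Cma1 and Mcpt4 stood at 0.0101 and 0.138 with limma-voom and at 0.23 and 0.457 with DESeq2 without wild-type replicate 2, and Zfp235 at 0.28 with DESeq2 without replicate 1. The cause was not tested. Medians of barrier lipid (0.25 to 0.47), immediate early (0.16 to 0.50), cell cycle (0.16 to 0.33) and mast cell genes (-0.99 to -0.36) kept their sign in each setting. Other lists did so too, among them collagen and matrix, epidermal keratin, MHC class II, and T cell and innate lymphoid genes. Counts limit the genes at low levels, such as Serpinb3a with 2 to 24 counts in an ASP library.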
